A study of Homo sapiens with 9 samples.

Results

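Activated HER2 was compared with empty vector in MCF10A cells grown on plastic, over every gene with a symbol. MCF10A is a non-tumorigenic human breast epithelial cell line. The comparison used 3 of the 9 RNA-seq libraries of the series, taken by their labels: 1 library of HER2 cells and 2 libraries of empty-vector cells, A and B. HER2 cells had been transduced with the retroviral construct pBABEpuro-HER2-CAV659E, which carries a constitutively active form of the receptor, and empty-vector cells with pBABEpuro. Both had received control siRNA with Lipofectamine RNAi-MAX, had been replated on plastic 24 h later, and were harvested after a further 24 h. Both grew in DMEM/F12 with 5% horse serum, insulin, EGF, hydrocortisone and cholera toxin, so the medium of both groups held a ligand of EGFR. Whether the lines were clones or pools is not given in the sources used here. The other 6 libraries were HER2 and empty-vector cells on a hydrogel of 0.5 kPa with control siRNA (1 library each), and on plastic with YAP/TAZ siRNA 1 or 3 (1 library per line and siRNA). Of 25369 genes with a symbol, 19300 had a count and 16117 passed the filter on low counts and were tested.

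HER2, the product of ERBB2, is a receptor tyrosine kinase of the EGF receptor family. It has no known ligand of its own, and it signals in dimers with EGFR or ERBB3 through the RAS-ERK and PI3K-AKT pathways. Its gene is amplified in a subset of breast cancers. MCF10A cells carry features of the basal layer of breast epithelium, among them the transcription factor p63, basal keratins and hemidesmosomes, the junctions that anchor keratins to the basement membrane.

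Levels are given as CPM, read counts scaled to a common library size with TMM factors, first for the HER2 library and then for controls A and B. The HER2 library held 24425556 counts, against 68646362 in control A and 74344596 in control B, and 3 counts were worth 0.131 CPM in the HER2 library, against 0.0424 and 0.0397 CPM in the controls. Such floors, and the intervals given for low counts, cover counting error only. The labels do not say that A and B came from separate cultures, so the spread between them may be technical. P-values measure only that spread and, in each line, the spread between the libraries of YAP/TAZ siRNA 1 and siRNA 3. The spread between siRNA libraries includes differences between the reagents. The HER2 group is 1 library. Its spread was taken from the other groups, and it cannot be left out. In RNA from whole cultures, fewer cells of a type and less RNA per cell cannot be told apart.

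A pair of edgeR quasi-likelihood fits over all 9 libraries, with Benjamini-Hochberg adjustment over all genes tested, gave the calls. The group-means fit has 3 residual degrees of freedom and called 166 genes (1.03% of those tested), 37 higher (0.23%) and 129 lower (0.8%) with HER2. The reagent-term fit adds the number of the YAP/TAZ siRNA and has 2 residual degrees of freedom. It called 3597 genes (22.3%), 1463 higher (9.08%) and 2134 lower (13.2%), among them all 166 of the group-means fit in the same direction. Fold changes leaned on transcript GC content, so the reagent-term fit was also run with GC content and length adjusted. That fit called 2001 genes (12.4%), 962 higher (5.97%) and 1039 lower (6.45%), with 164 of the 166 in the same direction and 1644 of the 3597. Counts for the gene lists below are to be read beside these shares of all genes tested. Calls leaned on both controls: without control A or without control B the group-means fit called 0 genes (1331 and 1520 at an unadjusted p under 0.05) and the reagent-term fit 502 and 617, while without the HER2 library of YAP/TAZ siRNA 1 or 3 the group-means fit called 1011 and 1004. A gene is said to have risen or fallen where it passed an adjusted p of 0.05 in the group-means or the reagent-term fit. Genes that missed it in the reagent-term fit with GC content and length adjusted are named as such. The group-means fit with that adjustment kept only 52 of the 166, and genes that missed it there are not marked. The ± after a log2 fold change is an approximate standard error. It is the absolute log2 fold change divided by the square root of F in the group-means fit. For every gene said to have risen or fallen, the HER2 library lay outside the range of both controls.

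In size, 651 genes were at least 2-fold higher in HER2 cells than in each control and 2010 at least 2-fold lower. At 32-fold the counts were 3 genes higher and 50 lower. Controls A and B differed from each other by 2-fold or more in 2 genes, with 0.5 CPM added to each value.

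**Figure D1:**
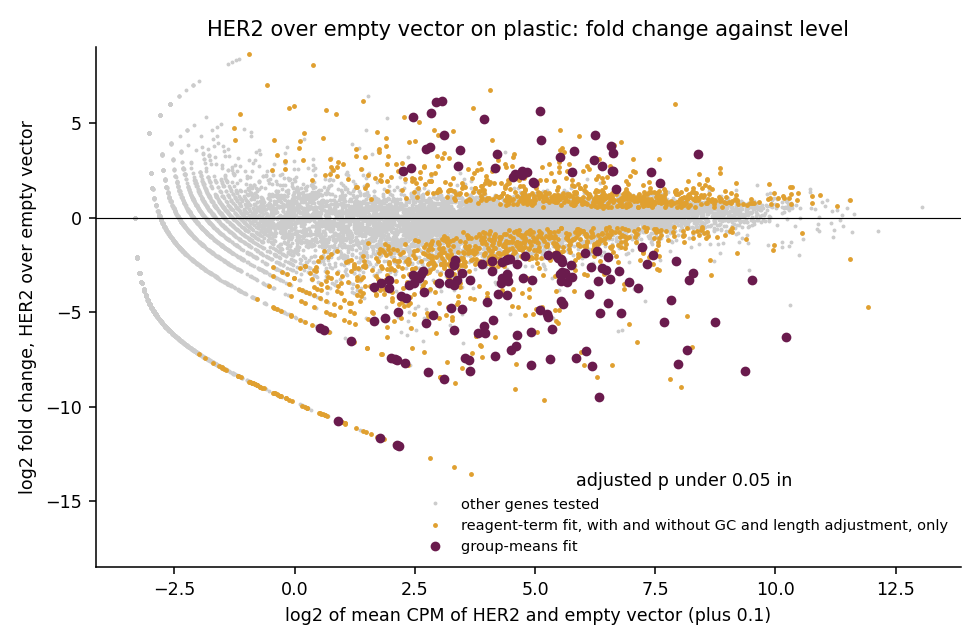
Log2 fold change of HER2 over empty vector on plastic (vertical axis) against the log2 of the mean CPM of both groups (horizontal axis, 0.1 added), 1 point per gene tested. Of the 166 genes called by the group-means fit (large points), 129 lie below 0. Mid-sized points passed only in the reagent-term fit, with and without GC and length adjustment. The curved lines at the lower left are genes with 0 or few counts in the HER2 library, whose fitted fold changes are not bounds.

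The lean of fold changes on GC content was stronger on plastic with control siRNA than in the other settings. Transcript GC content could be matched for 14877 of the 16117 genes (92.3%), and its Spearman correlation with the log2 fold change, across genes that share the same libraries, was -0.446 on plastic with control siRNA. The same correlation was -0.141 on the hydrogel and -0.336 with YAP/TAZ siRNA. The median log2 fold change was 0.39 in the lowest 10% of genes by GC content (median 36.9%) and -1.33 in the highest 10% (median 63.8%). After adjustment those medians were -0.02 and -0.17. GC content was matched for 124 of the 129 genes that fell in the group-means fit and for 35 of the 37 that rose. Its median was 55.0% in those that fell, 42.6% in those that rose, and 48.3% in all 14877 matched genes. The part of GC content in the results was not tested.

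**Figure D2:**
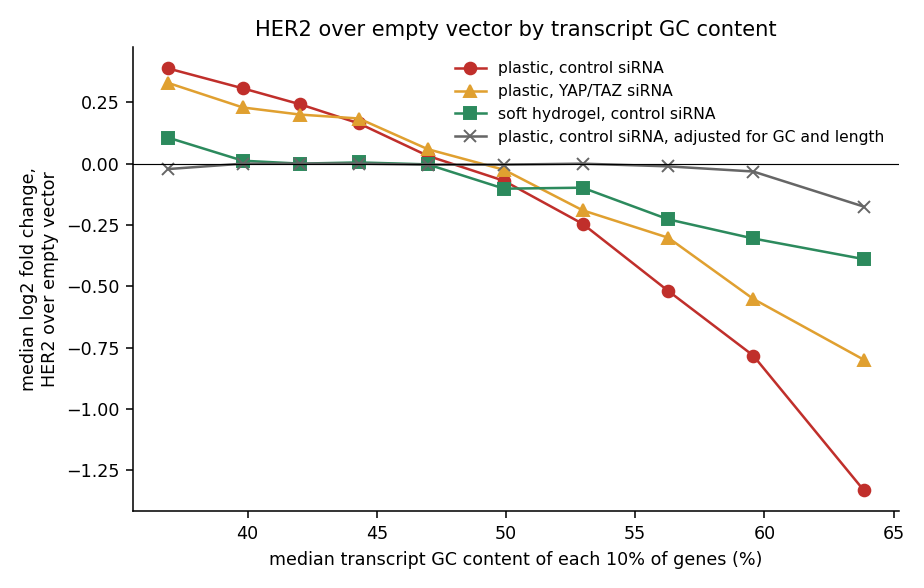
Median log2 fold change of HER2 over empty vector (vertical axis) in 10 equal bins of genes by transcript GC content (horizontal axis, median of the bin in percent), for plastic with control siRNA, plastic with YAP/TAZ siRNA, the hydrogel, and plastic after adjustment. On plastic with control siRNA the medians run from 0.39 to -1.33, and after adjustment from -0.02 to -0.17.

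Sequences of 3 promoters and 1 microRNA are shown because genes of the epithelial state and the repressors ZEB1 and ZEB2 moved in opposite directions. ZEB proteins bind the E-box CACCTG, read as CAGGTG on the other strand, and miR-205 is known to target the mRNAs of both. The promoter windows, from RefSeq (GRCh38.p14), run from 250 bases before to 50 after a transcript start of the gene. They are printed 5′ to 3′ on the gene's own strand. LAMA3 (chr18:23872770-23873069, plus strand), ITGB6 (chr2:160200223-160200522, minus strand) and SFN (chr1:26862899-26863198, plus strand) were among the genes that fell, and capitals mark the E-box. It begins at base -73 in LAMA3, -70 in ITGB6 and -213 in SFN, counted from the transcript start of each window. Any other starts of these genes were not searched. The 3 windows are examples that hold the E-box, which most windows of genes that fell do not (27 of 85 hold it).
LAMA3: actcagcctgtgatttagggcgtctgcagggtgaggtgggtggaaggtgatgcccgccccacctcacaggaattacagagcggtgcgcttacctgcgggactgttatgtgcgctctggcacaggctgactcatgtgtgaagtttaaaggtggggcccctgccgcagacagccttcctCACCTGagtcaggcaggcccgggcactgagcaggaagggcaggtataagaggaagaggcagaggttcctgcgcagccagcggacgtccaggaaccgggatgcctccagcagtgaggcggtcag
ITGB6: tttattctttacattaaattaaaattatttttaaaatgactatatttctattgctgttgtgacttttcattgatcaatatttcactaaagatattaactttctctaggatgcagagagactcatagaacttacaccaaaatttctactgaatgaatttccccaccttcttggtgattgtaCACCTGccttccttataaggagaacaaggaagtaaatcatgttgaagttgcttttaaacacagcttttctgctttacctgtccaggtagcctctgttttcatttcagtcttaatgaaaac
SFN: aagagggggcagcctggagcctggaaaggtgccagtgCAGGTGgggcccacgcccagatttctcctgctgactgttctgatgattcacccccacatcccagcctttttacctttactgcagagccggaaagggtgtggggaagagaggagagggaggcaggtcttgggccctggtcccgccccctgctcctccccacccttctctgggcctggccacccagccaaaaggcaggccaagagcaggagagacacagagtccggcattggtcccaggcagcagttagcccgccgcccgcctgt
hsa-miR-205-5p: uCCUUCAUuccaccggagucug

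The mature miR-205-5p is encoded at chr1:209432166-209432187 on the plus strand and has 22 bases, with its seed, bases 2 to 8, in capitals. The mature microRNA was not measured here. Its host transcript MIR205HG had 0.613 CPM in HER2 cells, against 148 and 141 CPM in empty-vector cells (log2 fold change -7.88 ± 0.96, adjusted p = 0.0408). The E-box was searched on both strands and may overlap other motifs. Of the 129 genes that fell in the group-means fit, 85 have a window in the table, and it occurred in 27 (31.8%). Of the 37 that rose in that fit, 26 have a window, and it occurred in 2 (7.69%). It occurred in 2167 of the 11293 genes tested (19.2%) and in 5625 of all 27305 promoters (20.6%). The median GC content of the windows was 66.0% for those that fell, 56.8% for those that rose and 64.7% for the genes tested. A match of letters is a description of the window and not a binding site.

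The receptor itself was the most abundant gene that rose in the group-means fit. ERBB2 had 614 CPM in HER2 cells, against 60.5 and 57.7 CPM in empty-vector cells (log2 fold change 3.38 ± 0.26, adjusted p = 0.0166). Reads of the vector's and the cell's own ERBB2 cannot be told apart in these counts. Of its partners, EGFR had 76.4 CPM with HER2, against 146 and 149 CPM with empty vector (log2 fold change -0.95 ± 0.31, adjusted p = 0.171, and 0.0177 with the reagent term), and ERBB3, the partner that couples most directly to PI3K, had 0.656 CPM with HER2, against 15.4 and 15 CPM with empty vector (log2 fold change -4.53 ± 1.32, adjusted p = 0.139, and 0.00942 with the reagent term). Both partners were lower in the HER2 library than in either control, ERBB3 at under 1 CPM.

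Among 10 ligands of the family tested, 2 rose and 3 fell, all with the reagent term and none in the group-means fit. Of all genes tested, 9.08% rose and 13.2% fell with the reagent term. EREG, the gene of epiregulin, had 223 CPM in HER2 cells, against 39.95 and 40.4 CPM in empty-vector cells (log2 fold change 2.48 ± 0.48, adjusted p = 0.0703, and 0.0143 with the reagent term). TGFA fell to 63 CPM with HER2, against 116 and 119 CPM with empty vector (log2 fold change -0.90 ± 0.33, adjusted p = 0.2, and 0.0264 with the reagent term). NRG1, the neuregulin ligand of ERBB3, had 0.175 CPM with HER2, against 4.46 and 6.9 CPM with empty vector (log2 fold change -5.00 ± 1.13, adjusted p = 0.0887, and 0.0123 with the reagent term). HBEGF also fell and NRG4 rose with the reagent term (adjusted p = 0.114 and 0.143, and 0.0363 and 0.0326 with the reagent term), but not once GC content and length were adjusted. Epigen (EPGN) had 32.1 CPM against 71.4 and 73.1 CPM and amphiregulin (AREG) 3.59 CPM against 4.25 and 4 CPM, in HER2 and empty-vector cells, without passing either fit.

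The genes beside ERBB2 on its chromosome did not rise with it. Of 8 tested, 0 rose and 4 fell with the reagent term, beside 9.08% and 13.2% of all genes tested. GRB7, an adaptor protein gene next to ERBB2 that is often co-amplified with it, had 0.613 CPM in HER2 cells, against 6.43 and 5.19 CPM in empty-vector cells (log2 fold change -3.24 ± 0.53, adjusted p = 0.0593, and 0.0159 with the reagent term). STARD3, MIEN1 and PGAP3 fell with log2 fold changes of -1.13, -1.10 and -2.06 (adjusted p = 0.153, 0.0941 and 0.0731, and 0.0437, 0.017 and 0.017 with the reagent term) and missed the threshold after adjustment for GC content and length. The kinase gene CDK12 had 162 CPM with HER2, against 126 and 127 CPM with empty vector, with an adjusted p of 0.38.

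Downstream of the receptor, genes known as feedback regulators of ERK signalling and related ETV factors were higher in part. Of 22 tested, 6 rose and 1 fell with the reagent term, beside 9.08% and 13.2% of all genes tested. The median log2 fold change of the 22 was 0.36, beside -0.08 over all genes tested. SPRED1, an inhibitor of RAS-ERK signalling, had 243 CPM in HER2 cells, against 92 and 98.3 CPM in empty-vector cells (log2 fold change 1.35 ± 0.24, adjusted p = 0.0656, and 0.013 with the reagent term). DUSP4, a phosphatase of MAP kinases, had 247 CPM with HER2, against 140.3 and 135 CPM with empty vector (log2 fold change 0.84 ± 0.80, adjusted p = 0.62, and 0.0144 with the reagent term). ETV1, an ETS-family transcription factor, had 76.4 CPM with HER2, against 13.5 and 15 CPM with empty vector (log2 fold change 2.42 ± 0.65, adjusted p = 0.122, and 0.0126 with the reagent term). These 3 genes stood above both controls in the HER2 library, and DUSP1, PHLDA1 and SPRED3 did too, with log2 fold changes of 1.34, 1.03 and 1.41 (adjusted p = 0.0926, 0.315 and 0.173, and 0.0143, 0.013 and 0.0293 with the reagent term). The phosphatase DUSP7 fell to 18.9 CPM with HER2, against 49.8 and 54.7 CPM with empty vector (adjusted p = 0.131, and 0.0103 with the reagent term), a call that was lost with GC content and length adjusted. DUSP6, the ERK phosphatase often used as a readout of the pathway, had 369 CPM in HER2 cells, against 185 and 193 CPM in empty-vector cells (adjusted p = 0.367, and 0.0641 with the reagent term), and CCND1 had 496 CPM with HER2, against 522 and 516 CPM with empty vector.

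The AP-1 factors, dimers of JUN and FOS proteins, split. FOSL1 was the only one of 12 tested that passed in the group-means fit, with 43.9 CPM in HER2 cells, against 9.08 and 9.6 CPM in empty-vector cells (log2 fold change 2.23 ± 0.29, adjusted p = 0.0447). JUN had 109 CPM with HER2, against 56.1 and 54.2 CPM with empty vector (log2 fold change 0.98 ± 0.73, adjusted p = 0.515, and 0.0243 with the reagent term). ATF3 fell to 0.656 CPM with HER2, against 2.06 and 2.35 CPM with empty vector (log2 fold change -1.75 ± 0.74, adjusted p = 0.257, and 0.0191 with the reagent term). JUNB, JUND and MAFF fell with the reagent term (adjusted p = 0.0695, 0.0868 and 0.0753, and 0.0179, 0.0244 and 0.0158 with the reagent term) but not after adjustment for GC content and length. Of 29 kinases, GTPases and adaptors of the RAS, MAPK and PI3K pathways, 3 rose and 5 fell with the reagent term, which is close to the share over all genes. After GC and length adjustment 0 rose and 2 fell, the lowest being PIK3CD, a catalytic PI3K subunit, with 0.438 CPM with HER2, against 8.56 and 9.62 CPM with empty vector (log2 fold change -4.37 ± 0.66, adjusted p = 0.0529, and 0.00507 with the reagent term).

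Adherens junctions, desmosomes and tight junctions hold epithelial cells together, and many of their genes were lower in HER2 cells. CDH1, the gene of E-cadherin, had 1.18 CPM in HER2 cells, against 445 and 442 CPM in empty-vector cells (log2 fold change -8.55 ± 1.82, adjusted p = 0.0796, and 0.00223 with the reagent term). CDH3, P-cadherin, had 4.33 CPM with HER2, against 559 and 568 CPM with empty vector (log2 fold change -7.02 ± 0.64, adjusted p = 0.0257). CDH2, N-cadherin, had 232 CPM with HER2, against 136 and 142 CPM with empty vector (log2 fold change 0.74 ± 0.49, adjusted p = 0.459, 0.0381 with the reagent term and 0.0887 with GC content and length adjusted too). Of the catenins, which link cadherins to the cytoskeleton, CTNNA1 had 744 CPM against 814 and 825 CPM and CTNNB1 406 CPM against 528 and 501 CPM, in HER2 and empty-vector cells, and neither passed a fit. Plakoglobin (JUP), a catenin of adherens junctions and desmosomes, had 6.83 CPM with HER2, against 227 and 213 CPM with empty vector (log2 fold change -5.01 ± 0.95, adjusted p = 0.07, 0.0282 with the reagent term and 0.0597 with GC content and length adjusted too). CTNND1, p120 catenin, had 2.23 CPM with HER2, against 5.06 and 4.82 CPM with empty vector and did not pass (adjusted p = 0.296, and 0.0598 with the reagent term). Of 11 cadherins and catenins tested, 1 rose and 4 fell with the reagent term, and 0 and 2 after GC and length adjustment.

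Of 11 desmosome genes tested, 4 fell with the reagent term and 0 in the group-means fit, with a median log2 fold change of -2.30, or -1.88 with genes at 0 counts set at their bound. The desmosomal cadherin DSG3 had 2.93 CPM in HER2 cells, against 292 and 261 CPM in empty-vector cells (log2 fold change -6.56 ± 1.14, adjusted p = 0.0631, and 0.013 with the reagent term) and DSC3 had 75.6 CPM with HER2, against 311 and 303 CPM with empty vector (log2 fold change -2.02 ± 0.93, adjusted p = 0.291, and 0.00568 with the reagent term). The plakophilins PKP2 and PKP3, which link these cadherins to keratins, fell with log2 fold changes of -2.11 and -3.10 (adjusted p = 0.222 and 0.0513, and 0.0166 and 0.0046 with the reagent term). Desmoplakin (DSP) had 352 CPM with HER2, against 862 and 853 CPM with empty vector and did not pass either fit (adjusted p = 0.23, and 0.0897 with the reagent term), nor did DSG2.

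Tight junction genes showed 10 of 17 lower with the reagent term, 10 after GC and length adjustment and 1 in the group-means fit, and 0 higher. Their median log2 fold change was -3.81, or -4.22 where genes at 0 counts take their bound. The claudin CLDN4 had 0 counts in the HER2 library, against 23.4 and 15.8 CPM in the controls, and was thus at least 149-fold lower, against a floor of 3 counts in the HER2 library (adjusted p = 0.0887, and 0.0226 with the reagent term). CLDN7 had 1.75 CPM with HER2, against 64.4 and 55.6 CPM with empty vector (log2 fold change -5.10 ± 1.05, adjusted p = 0.0765, and 0.0139 with the reagent term), and occludin (OCLN) 0.35 CPM with HER2, against 13.2 and 12.8 CPM with empty vector (log2 fold change -5.21 ± 0.85, adjusted p = 0.0593, and 0.00479 with the reagent term). MARVELD3, a relative of occludin, had 1 count in the HER2 library, and the ratio of empty vector over HER2 was 219-fold (interval 39.3 to 8663). The scaffold gene TJP1 had 190.2 CPM with HER2, against 214 and 218 CPM with empty vector and passed neither fit.

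**Figure D3:**
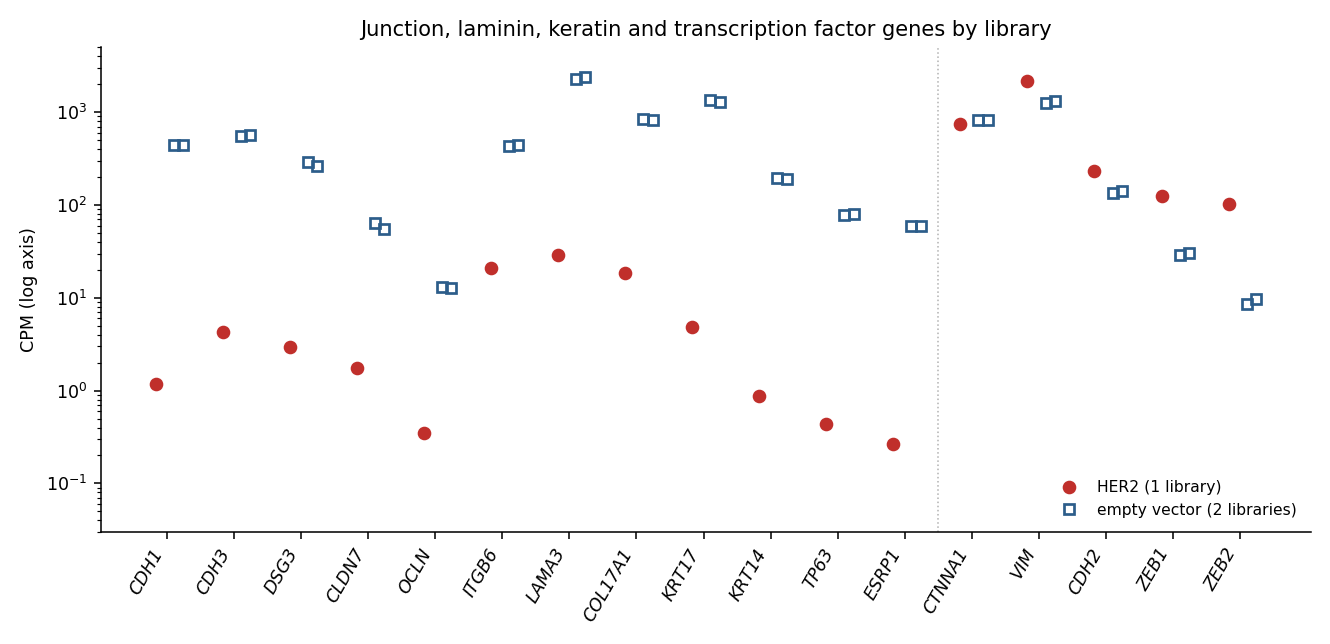
CPM (vertical axis, log scale) of 17 junction, laminin, keratin and transcription factor genes in the HER2 library (filled circle) and in empty-vector libraries A and B (open squares). The circle lies below both squares for the 12 genes left of the dotted line and above both for VIM, CDH2, ZEB1 and ZEB2, while CTNNA1 is close to its controls.

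Genes of hemidesmosomes and of the epithelial laminin they bind were lower in HER2 cells. Of 9 genes tested, 2 fell in the group-means fit, 7 with the reagent term and 5 after GC and length adjustment. LAMA3, the alpha chain of that laminin, whose promoter window is printed above, had 29.1 CPM in HER2 cells, against 2291 and 2423 CPM in empty-vector cells (log2 fold change -6.34 ± 0.44, adjusted p = 0.0118). COL17A1, a collagen that spans the membrane at hemidesmosomes, had 18.3 CPM with HER2, against 839 and 827 CPM with empty vector (log2 fold change -5.51 ± 0.45, adjusted p = 0.0191). In both the HER2 library lay far below both controls, which were close to each other. The beta chain LAMB3 and the integrin ITGB4 fell with the reagent term only before GC and length adjustment (adjusted p = 0.0703 and 0.0862, and 0.0256 and 0.0303 with the reagent term).

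Among 20 keratin genes tested, 11 fell and 1 rose with the reagent term, beside 13.2% and 9.08% of all genes tested. After GC and length adjustment 6 fell and 1 rose, beside 6.45% and 5.97%. KRT17, a keratin of basal and stressed epithelia, had 4.81 CPM in HER2 cells, against 1364 and 1277 CPM in empty-vector cells (log2 fold change -8.10 ± 0.79, adjusted p = 0.0274). The basal keratin KRT14 had 0.875 CPM with HER2, against 195 and 191 CPM with empty vector (log2 fold change -7.78 ± 2.33, adjusted p = 0.146, and 0.00253 with the reagent term), and its partner KRT5 581 CPM with HER2, against 2291 and 2311 CPM with empty vector (log2 fold change -1.99 ± 1.23, adjusted p = 0.43, 0.026 with the reagent term and 0.0801 with GC content and length adjusted too). KRT16 and KRT6B, keratins of activated epidermis, were at 0.438 and 0.263 CPM in HER2 cells, against at least 44.6 and 28.3 CPM in either control (adjusted p = 0.195 and 0.0874, and 0.00284 and 0.00592 with the reagent term). The simple-epithelial keratins KRT8 and KRT18 stood at 60.4 CPM against 135 and 134 CPM and at 129 CPM against 221 and 226 CPM in HER2 and empty-vector cells, and only KRT8 passed a fit, before GC and length adjustment (adjusted p = 0.075, and 0.0123 with the reagent term). KRT80 was the keratin that rose, with 33.5 CPM with HER2, against 15.8 and 15 CPM with empty vector (log2 fold change 1.12 ± 0.97, adjusted p = 0.581, and 0.0225 with the reagent term).

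Many genes of terminal differentiation of stratified epithelia were lower in HER2 cells. Of 24 cornified envelope genes tested, 13 fell with the reagent term, 6 after GC and length adjustment and 0 in the group-means fit. The shares over all genes tested were 13.2%, 6.45% and 0.8% in the same order. The median log2 fold change of the 24 was -5.48, or -2.75 where genes at 0 counts take their bound. Involucrin (IVL), a precursor of the envelope, had 0 counts with HER2, against 4.22 and 5.1 CPM with empty vector, and was at least 35.6-fold lower (adjusted p = 0.205, and 0.00732 with the reagent term). SPRR1B and SPRR2D, small proline-rich envelope proteins, also had 0 counts and were at least 22.1-fold and 29.8-fold lower (adjusted p = 0.361 and 0.105, and 0.0039 and 0.00624 with the reagent term). The kallikreins, secreted proteases of the same layers, showed 4 of 10 lower with the reagent term. KLK7 had 2 counts in the HER2 library, and empty vector over HER2 gave 542-fold (interval 150.0 to 4480.2). KLK5 gave 200.0-fold (interval 55.2 to 1649.7) and KLK10 203-fold (interval 36.4 to 8022). KLK7, KLK5 and KLK10 passed only with the reagent term, with adjusted p = 0.122, 0.0646 and 0.0925, and 0.00223, 0.004 and 0.0039 with the reagent term.

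Of 14 S100 calcium-binding proteins tested, 8 fell and 1 rose with the reagent term, beside 13.2% and 9.08% of all genes tested. S100A2 had 134 CPM in HER2 cells, against 1456 and 1207 CPM in empty-vector cells (log2 fold change -3.32 ± 0.46, adjusted p = 0.0466). S100A14 had 5.34 CPM with HER2, against 613 and 611 CPM with empty vector (log2 fold change -6.84 ± 1.02, adjusted p = 0.0521, and 0.00314 with the reagent term). The member that rose was S100A4, known from mesenchymal cells and fibroblasts, with 59.6 CPM with HER2, against 15.6 and 14.5 CPM with empty vector (log2 fold change 1.98 ± 0.30, adjusted p = 0.0529, and 0.00659 with the reagent term). Of 10 intracellular serpins, 4 fell with the reagent term and 2 after GC and length adjustment. SERPINB2, an inhibitor of plasminogen activators, had 0.219 CPM with HER2, against 158 and 161 CPM with empty vector (log2 fold change -9.50 ± 0.46, adjusted p = 0.0118), and SERPINB13 had 0 counts and was at least 106-fold lower (adjusted p = 0.157, and 0.00384 with the reagent term).

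The membrane serine protease matriptase and its inhibitors were lower together. SPINT2, a Kunitz-type inhibitor of matriptase, had 21.1 CPM in HER2 cells, against 234 and 221 CPM in empty-vector cells (log2 fold change -3.43 ± 0.33, adjusted p = 0.0274). Matriptase itself (ST14) had 18.5 CPM with HER2, against 218 and 207 CPM with empty vector (log2 fold change -3.52 ± 0.78, adjusted p = 0.0862, and 0.00461 with the reagent term). SCNN1A, a subunit of the epithelial sodium channel, had 43.9 CPM with HER2, against 154 and 153 CPM with empty vector (log2 fold change -1.80 ± 1.51, adjusted p = 0.57, and 0.00479 with the reagent term), while SPINT1 and the protease PRSS8 missed the threshold with GC content and length adjusted (adjusted p = 0.0689 and 0.095, and 0.0248 and 0.0484 with the reagent term). In all, 5 of 13 genes of this list fell with the reagent term and 0 rose.

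Many transcription factors and splicing regulators of epithelia were lower in HER2 cells, 10 of 22 falling and 2 rising with the reagent term, the same numbers as after GC and length adjustment. TP63, the gene of p63, a factor that keeps basal epithelial identity, had 0.438 CPM in HER2 cells, against 78.6 and 79.7 CPM in empty-vector cells (log2 fold change -7.49 ± 0.51, adjusted p = 0.0118). The splicing regulator ESRP1 had 0.263 CPM with HER2, against 59.6 and 59.4 CPM with empty vector (log2 fold change -7.81 ± 0.82, adjusted p = 0.0331). Both stood under 1 CPM in HER2 cells, against at least 59.4 CPM in either control. ELF3, an ETS factor of epithelia, had 0 counts with HER2, against 28.4 and 22 CPM with empty vector, and was at least 191-fold lower, the largest bound of any gene at 0 counts in HER2 cells (adjusted p = 0.169, and 0.00328 with the reagent term). The grainyhead-like factor GRHL3 had 1 count, with a ratio of empty vector over HER2 of 364-fold (interval 65.2 to 14368), and passed only with the reagent term (adjusted p = 0.148, and 0.0102 with the reagent term). OVOL1 and OVOL2, zinc-finger factors known to repress ZEB1, had 0 and 1 count, the first at least 28.4-fold lower (adjusted p = 0.148 and 0.0731, and 0.00543 and 0.022 with the reagent term). The exceptions were TFAP2C and GATA3, with 35.1 CPM against 16.8 and 17 CPM and 7.88 CPM against 2.81 and 3.37 CPM in HER2 and empty-vector cells (adjusted p = 0.161 and 0.135, and 0.0181 and 0.0394 with the reagent term).

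Among 10 factors known to drive the epithelial-mesenchymal transition, 2 rose with the reagent term and 0 fell. The shares over all genes tested were 9.08% and 13.2%. ZEB2 had 103 CPM in HER2 cells, against 8.54 and 9.63 CPM in empty-vector cells (log2 fold change 3.50 ± 0.50, adjusted p = 0.0497). ZEB1 had 125 CPM with HER2, against 29 and 30.6 CPM with empty vector (log2 fold change 2.06 ± 0.51, adjusted p = 0.106, and 0.0089 with the reagent term). SNAI2, the gene of SLUG, was lower in the HER2 library, with 55 CPM with HER2, against 109 and 112 CPM with empty vector, and passed neither fit (adjusted p = 0.753, and 0.318 with the reagent term). TWIST1 had 19.3 CPM with HER2, against 14.3 and 15.1 CPM with empty vector and passed neither fit. The intermediate filament gene VIM had 2175 CPM with HER2, against 1270.0 and 1321 CPM with empty vector (log2 fold change 0.75 ± 0.48, adjusted p = 0.451, and 0.0266 with the reagent term). NES, nestin, had 8.88 CPM with HER2, against 1.96 and 2.29 CPM with empty vector (log2 fold change 2.06 ± 0.76, adjusted p = 0.203, and 0.0131 with the reagent term).

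**Figure D4:**
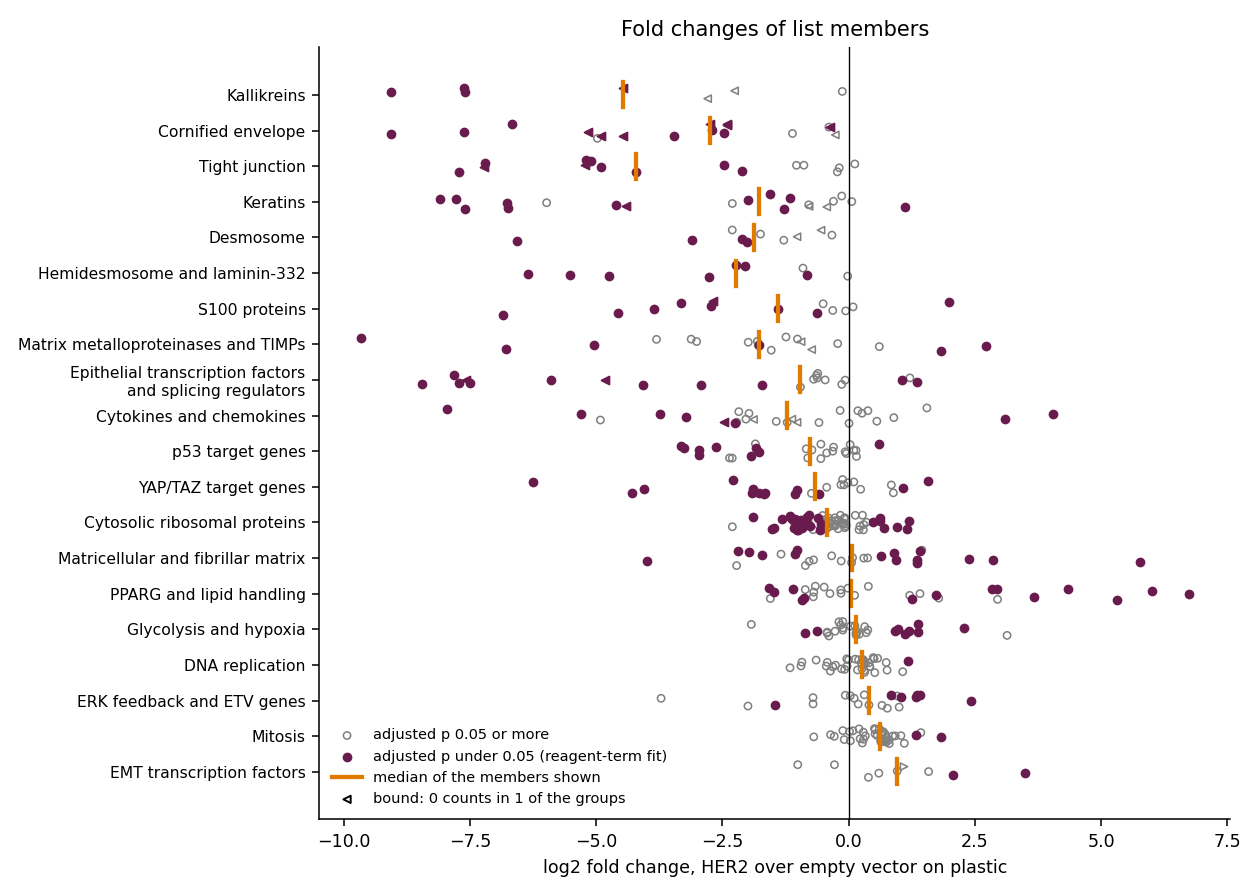
Log2 fold change of HER2 over empty vector on plastic (horizontal axis) for the tested members of 20 gene lists (rows), filled where the adjusted p of the reagent-term fit was under 0.05. Triangles are bounds for genes with 0 counts in 1 of the groups, and bars are the medians of the members shown. The medians run from -4.46 for kallikreins and -4.22 for tight junctions to 0.96 for EMT transcription factors.

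Several genes of lipid uptake and storage rose in HER2 cells. PPARG, the nuclear receptor that directs fat-cell differentiation, had 145 CPM in HER2 cells, against 6.68 and 7.51 CPM in empty-vector cells (log2 fold change 4.35 ± 0.54, adjusted p = 0.0408). Of 33 genes of its list tested, 9 rose and 5 fell with the reagent term, and 10 and 1 after GC and length adjustment, around a median of 0.00. The fatty acid carrier FABP4 had 470.4 CPM with HER2, against 7.88 and 6.82 CPM with empty vector (log2 fold change 6.0 ± 2.62, adjusted p = 0.27, and 0.00583 with the reagent term). Lipoprotein lipase (LPL) had 32.9 CPM with HER2, against 0.297 and 0.317 CPM with empty vector (log2 fold change 6.73 ± 1.81, adjusted p = 0.122, and 0.00223 with the reagent term), and the fatty acid transporter CD36 9.19 CPM with HER2, against 0.353 and 0.106 CPM with empty vector (log2 fold change 5.32 ± 2.45, adjusted p = 0.291, and 0.022 with the reagent term). ACSL5 and ACSL1, which activate fatty acids, and PDK4, which restrains pyruvate oxidation, had 87, 296 and 79.3 CPM in HER2 cells, against at most 7.49, 125 and 10.9 CPM in either control (adjusted p = 0.215, 0.506 and 0.225, and 0.00584, 0.0142 and 0.011 with the reagent term).

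Other genes of lipid synthesis did not follow. Fatty acid synthase (FASN) had 116 CPM with HER2, against 233 and 205 CPM with empty vector, a fall that passed with the reagent term (adjusted p = 0.517, and 0.0318 with the reagent term), and with GC content and length adjusted its log2 fold change turned from -0.91 to 0.24, without passing. Of 24 sterol synthesis genes, 8 fell and 1 rose with the reagent term, beside 13.2% and 9.08% of all genes tested. After adjustment 3 fell and 1 rose. The adipocyte markers ADIPOQ, LEP and PLIN1 were at 0, 0 and 0.26 CPM in the HER2 library, so the summed level of the 5 adipocyte markers, 615.3 CPM with HER2 against 14.6 and 14.4 CPM with empty vector, was that of FABP4 and PPARG.

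In the other settings the same genes were also higher in HER2 cells. On the hydrogel, PPARG had 206 CPM in HER2 cells against 10.2 CPM in empty-vector cells, and FABP4 6539 CPM in HER2 cells against 22.9 CPM in empty-vector cells. With YAP/TAZ siRNA 1 and 3, PPARG had 189 and 77.7 CPM in HER2 cells against 12.1 and 8.3 CPM in empty-vector cells, and FABP4 9489 and 266 CPM in HER2 cells against 77.8 and 0.593 CPM in empty-vector cells. Both genes were above the empty-vector libraries of each setting, while FABP4 also varied widely between the settings in both lines. For neither gene did the difference between the line effects pass in the test of that difference, which called 0 of the 16117 genes. With 1 HER2 library on plastic and 1 library per line on the hydrogel, that does not show that the effects were equal.

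**Figure D5:**
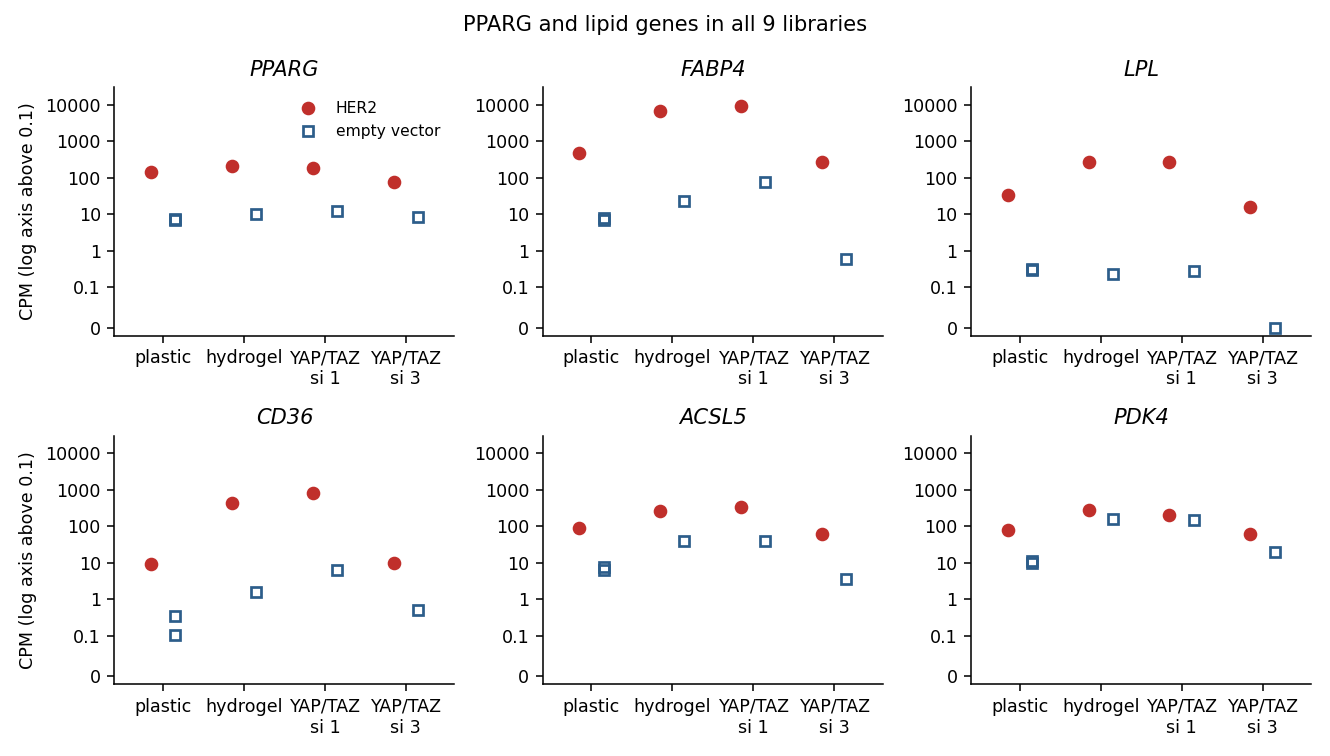
CPM (vertical axis, logarithmic above 0.1 and linear to 0) of PPARG, FABP4, LPL, CD36, ACSL5 and PDK4 in HER2 (filled circles) and empty-vector libraries (open squares), on plastic and on the hydrogel with control siRNA and on plastic with YAP/TAZ siRNA 1 or 3. In each of the 4 settings the HER2 library lies above the empty-vector libraries of that setting for all 6 genes.

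Reductases that use steroids, prostaglandins and other carbonyls as substrates were also higher. AKR1C3 had 163 CPM in HER2 cells, against 29.2 and 29.7 CPM in empty-vector cells (log2 fold change 2.47 ± 0.21, adjusted p = 0.021). AKR1C2 had 134 CPM with HER2, against 16.5 and 15.9 CPM with empty vector (log2 fold change 3.05 ± 0.41, adjusted p = 0.0451). These paralogs, with AKR1C1 at 13.9 CPM with HER2, against 5.11 and 4.93 CPM with empty vector (adjusted p = 0.0992, and 0.00621 with the reagent term), are near-identical in sequence, so reads could be shared among them and their separate values are uncertain. ALDH1A3, an enzyme of retinoic acid synthesis, had 8.71 CPM with HER2, against 419.9 and 382 CPM with empty vector (log2 fold change -5.52 ± 0.74, adjusted p = 0.0451). Of the whole list of 27 tested NRF2 targets, reductases and aldehyde dehydrogenases, 7 rose and 3 fell with the reagent term. The shares over all genes tested were 9.08% and 13.2%. The NRF2 target NQO1 had 487 CPM with HER2, against 428 and 438 CPM with empty vector and passed neither fit.

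In glucose metabolism, 7 of 29 glycolysis and hypoxia genes rose with the reagent term and 2 fell, and 7 and 0 after adjustment. HK1, the first enzyme of glycolysis, had 757 CPM with HER2, against 368 and 398 CPM with empty vector (log2 fold change 0.98 ± 0.26, adjusted p = 0.116, and 0.0309 with the reagent term). PDK1 had 58.7 CPM with HER2, against 24.7 and 26.3 CPM with empty vector (log2 fold change 1.20 ± 0.24, adjusted p = 0.0731, and 0.00999 with the reagent term). Of the amino acid genes, the exchanger SLC7A5 and its partner SLC3A2 had 86.8 CPM against 737 and 716 CPM and 62.7 CPM against 281 and 256 CPM in HER2 and empty-vector cells (adjusted p = 0.278 and 0.07, and 0.00323 and 0.00941 with the reagent term), while the serine and asparagine synthesis genes PHGDH and ASNS rose by 1.31 and 0.83 on the log2 scale (adjusted p = 0.11 and 0.439, and 0.0234 and 0.0222 with the reagent term).

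Matrix genes changed in both directions. The adhesive glycoproteins thrombospondin 1 and fibronectin were lower: THBS1 had 1074 CPM in HER2 cells, against 4831 and 4951 CPM in empty-vector cells (log2 fold change -2.19 ± 0.43, adjusted p = 0.0731, and 0.00732 with the reagent term). FN1 had 457 CPM with HER2, against 1501 and 1513 CPM with empty vector (log2 fold change -1.72 ± 0.89, adjusted p = 0.342, and 0.00461 with the reagent term). Higher were SERPINE2, a secreted serpin that inhibits thrombin and plasminogen activators, with 284 CPM with HER2, against 53.2 and 55.5 CPM with empty vector (log2 fold change 2.39 ± 0.25, adjusted p = 0.033), and periostin (POSTN), with 92 CPM with HER2, against 11.5 and 14 CPM with empty vector (log2 fold change 2.85 ± 1.04, adjusted p = 0.2, and 0.00328 with the reagent term). VCAN, the proteoglycan versican, and the laminin chain LAMA4 also rose, by 1.42 and 5.77 on the log2 scale, the last to 25.3 CPM with HER2, against 0.65 and 0.278 CPM with empty vector (adjusted p = 0.0629 and 0.0862, and 0.0102 and 0.00461 with the reagent term). Of 28 matrix genes tested, 9 rose and 6 fell with the reagent term, beside 9.08% and 13.2% of all genes tested. Among 26 collagens, 4 rose and 6 fell with the reagent term, beside 9.08% and 13.2% of all genes tested. COL6A1 and COL6A2 stood at 25.8 CPM against 5.79 and 5.53 CPM and 9.54 CPM against 0.763 and 0.423 CPM, and COL8A1 at 14.9 CPM against 121 and 121 CPM, in HER2 and empty-vector cells (adjusted p = 0.0907, 0.131 and 0.0779, and 0.0258, 0.0181 and 0.00284 with the reagent term). The fibroblast markers summed to 5.95 CPM with HER2, against 6.07 and 6.34 CPM with empty vector, over 8 genes.

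Proteases of the matrix and their inhibitors differed in both directions. Gelatinase MMP9 had 2 counts with HER2, against 73 and 72.2 CPM with empty vector, a ratio of empty vector over HER2 of 829-fold (interval 230.0 to 6849.7). Its fall passed only with the reagent term (adjusted p = 0.0593, and 0.00314 with the reagent term). TIMP3, an inhibitor of metalloproteinases, had 4.77 CPM in HER2 cells, against 154 and 160.0 CPM in empty-vector cells (log2 fold change -5.04 ± 0.39, adjusted p = 0.0166). In the other direction, the membrane-type enzyme MMP16 had 18.2 CPM with HER2, against 2.39 and 3.12 CPM with empty vector (log2 fold change 2.72 ± 0.31, adjusted p = 0.0374). Gelatinase MMP2 had 17.4 CPM with HER2, against 4.59 and 5.19 CPM with empty vector (log2 fold change 1.83 ± 0.43, adjusted p = 0.0942, and 0.0351 with the reagent term). Of 19 genes tested, 2 rose and 4 fell with the reagent term, and 2 and 3 after GC and length adjustment, beside 9.08% and 13.2%, and 5.97% and 6.45%, of all genes tested.

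Integrins, the receptors for matrix, showed 2 of 16 lower in the group-means fit and 6 with the reagent term. Of all genes tested, 0.8% and 13.2% were lower in those fits. ITGB6 and ITGB8, whose heterodimers with the alpha-v chain activate latent TGF-beta, had 20.9 CPM against 431 and 439.7 CPM and 35.2 CPM against 150.1 and 148 CPM in HER2 and empty-vector cells (adjusted p = 0.021 and 0.0451, log2 fold changes -4.38 and -2.08). Their partner ITGAV had 582 CPM with HER2, against 649 and 664 CPM with empty vector and the common beta chain ITGB1 2581 CPM with HER2, against 1957 and 2124 CPM with empty vector, and neither passed a fit.

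In TGF-beta signalling, the ligand TGFB2 had 2.1 CPM in HER2 cells, against 33.7 and 36.5 CPM in empty-vector cells (log2 fold change -4.06 ± 0.39, adjusted p = 0.0264). FST, the activin antagonist follistatin, had 0.656 CPM with HER2, against 111 and 120.0 CPM with empty vector (log2 fold change -7.45 ± 1.00, adjusted p = 0.0451). Its relative FSTL3 had 18.6 CPM with HER2, against 185 and 164 CPM with empty vector (log2 fold change -3.23 ± 0.61, adjusted p = 0.0695, and 0.0102 with the reagent term). LTBP1, which stores latent TGF-beta in the matrix, had 457 CPM with HER2, against 118 and 122 CPM with empty vector (log2 fold change 1.93 ± 0.56, adjusted p = 0.138, and 0.0377 with the reagent term). Over 25 genes tested, 4 rose and 4 fell with the reagent term, beside 9.08% and 13.2% of all genes tested. ID3, a target of BMP signalling that blocks helix-loop-helix factors, had 0.569 CPM with HER2, against 30.9 and 29.3 CPM with empty vector (log2 fold change -5.72 ± 0.40, adjusted p = 0.0118).

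YAP and TAZ are transcriptional coactivators that respond to cell shape and stiffness. Of 24 target genes tested, 12 fell and 2 rose with the reagent term, beside 13.2% and 9.08% of all genes tested. After adjustment 10 of the 24 fell and 2 rose. The median of the 24 before adjustment was -0.66. Tissue factor (F3), the most abundant member that fell, had 249 CPM with HER2, against 912 and 933 CPM with empty vector (log2 fold change -1.89 ± 0.35, adjusted p = 0.0695, and 0.00475 with the reagent term). ANKRD1 had 0.35 CPM with HER2, against 25.7 and 28.1 CPM with empty vector (log2 fold change -6.25 ± 1.64, adjusted p = 0.118, and 0.0148 with the reagent term). AMOTL2 had 37.4 CPM with HER2, against 122 and 114 CPM with empty vector (log2 fold change -1.66 ± 0.27, adjusted p = 0.0593, and 0.0108 with the reagent term). The coactivator gene TAZ itself (WWTR1) was higher, with 169.6 CPM with HER2, against 77.4 and 76.9 CPM with empty vector (log2 fold change 1.14 ± 0.39, adjusted p = 0.179, and 0.00915 with the reagent term). TFPI, the inhibitor of the tissue factor pathway of coagulation, rose in the group-means fit, with 304 CPM with HER2, against 83.4 and 85.9 CPM with empty vector (log2 fold change 1.85 ± 0.26, adjusted p = 0.0474).

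Actin genes and targets of SRF, a factor that senses the actin pool, showed 9 of 25 lower with the reagent term and 0 higher. Of all genes tested, 13.2% were lower and 9.08% higher with that term. Calponin 2 (CNN2) had 49.8 CPM in HER2 cells, against 279 and 267 CPM in empty-vector cells (log2 fold change -2.45 ± 0.28, adjusted p = 0.0374). TAGLN, transgelin, had 4.95 CPM with HER2, against 244 and 245 CPM with empty vector (log2 fold change -5.63 ± 1.70, adjusted p = 0.147, and 0.016 with the reagent term), and the tropomyosin gene TPM1 84.5 CPM with HER2, against 274 and 285 CPM with empty vector (log2 fold change -1.72 ± 0.25, adjusted p = 0.0502, and 0.00749 with the reagent term). The cytoplasmic actins ACTB and ACTG1 fell with the reagent term (adjusted p = 0.155 and 0.105, and 0.0436 and 0.0101 with the reagent term) but not after GC and length adjustment. LIMA1, an actin-binding protein of epithelial junctions, had 82.1 CPM with HER2, against 392 and 414 CPM with empty vector (log2 fold change -2.30 ± 0.32, adjusted p = 0.0466).

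Of 26 p53 target genes, 4 fell in the group-means fit, and 8 fell and 1 rose with the reagent term. Of all genes tested, 13.2% fell and 9.08% rose with that term. SFN, also known as 14-3-3 sigma, a cell cycle inhibitor of epithelia, had 53.5 CPM in HER2 cells, against 541 and 535 CPM in empty-vector cells (log2 fold change -3.33 ± 0.39, adjusted p = 0.0399). CDKN1A, the CDK inhibitor p21, had 19.96 CPM with HER2, against 129.9 and 117 CPM with empty vector (log2 fold change -2.63 ± 0.36, adjusted p = 0.0466). PLK2 and PHLDA3, a kinase and a repressor of AKT, fell to 17.9 CPM against 172 and 169.5 CPM and 4.81 CPM against 42 and 33.3 CPM in HER2 and empty-vector cells. MDM2, the ubiquitin ligase of p53 and itself a p53 target, had 366 CPM with HER2, against 356 and 361 CPM with empty vector and passed neither fit.

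Few cycling genes passed a fit. MKI67, the proliferation marker Ki-67, had 903 CPM with HER2, against 248 and 259 CPM with empty vector (log2 fold change 1.83 ± 0.75, adjusted p = 0.246, and 0.00575 with the reagent term). Of 38 mitosis genes, 2 rose with the reagent term, 1 after GC and length adjustment, and 0 fell, around a median log2 fold change of 0.62. Of 36 replication genes, 1 rose (TYMS, thymidylate synthase, with 60.8 CPM with HER2, against 25.2 and 28.7 CPM with empty vector, adjusted p = 0.418, and 0.0268 with the reagent term) and 0 fell, around 0.26. These shares of risen genes were below the 9.08% over all genes tested. Among 16 regulators of apoptosis, 5 fell and 2 rose with the reagent term, beside 13.2% and 9.08% of all genes tested. After GC and length adjustment 5 fell and 0 rose. BAD, which promotes cell death, fell in both fits, with 4.51 CPM with HER2, against 26.4 and 24 CPM with empty vector (log2 fold change -2.48 ± 0.36, adjusted p = 0.0488). The members that rose were the survival gene MCL1 and the death-promoting PMAIP1, with 1550.0 CPM against 849 and 832 CPM and 70.7 CPM against 30.6 and 33 CPM in HER2 and empty-vector cells (adjusted p = 0.396 and 0.135, and 0.0473 and 0.0165 with the reagent term).

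Growth factor receptors other than the ERBB family also differed. NRP1, a co-receptor for VEGF and semaphorins, had 612 CPM in HER2 cells, against 152 and 159 CPM in empty-vector cells (log2 fold change 1.97 ± 0.71, adjusted p = 0.197, and 0.00304 with the reagent term). FGFR1 had 36.2 CPM with HER2, against 5.78 and 4.43 CPM with empty vector (log2 fold change 2.83 ± 0.64, adjusted p = 0.0891, and 0.0247 with the reagent term). FGFR2, whose epithelial isoform depends on ESRP proteins, had 0.263 CPM with HER2, against 8.39 and 8.5 CPM with empty vector (log2 fold change -5.00 ± 0.46, adjusted p = 0.0257). The FGF carrier FGFBP1 had 6.52 CPM with HER2, against 206 and 222 CPM with empty vector (log2 fold change -5.04 ± 0.46, adjusted p = 0.0257). Of 26 other receptor tyrosine kinases and ligands, 9 fell with the reagent term and 0 rose. The collagen receptor DDR1 and GAS6, the ligand of AXL, had 7.83 CPM against 138 and 123 CPM and 4.2 CPM against 90.8 and 85.8 CPM in HER2 and empty-vector cells (adjusted p = 0.045 and 0.0451). The plexin PLXNB1, a semaphorin receptor, had 5.65 CPM with HER2, against 58.8 and 52.3 CPM with empty vector (log2 fold change -3.30 ± 0.46, adjusted p = 0.0466), and the ephrin receptor EPHB3 had 0 counts and was at least 63.4-fold lower (adjusted p = 0.0536, and 0.0138 with the reagent term).

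Some Notch and Wnt genes passed in each direction. In the Notch list 2 of 19 rose and 7 fell with the reagent term, beside 9.08% and 13.2% of all genes tested. The ligand JAG2 fell to 5.03 CPM with HER2, against 29.1 and 29.7 CPM with empty vector (log2 fold change -2.55 ± 0.50, adjusted p = 0.0723, and 0.00708 with the reagent term). The effector HES1 fell to 6.78 CPM with HER2, against 30.1 and 26.5 CPM with empty vector. HEY1, another effector, rose to 6.43 CPM with HER2, against 1.57 and 1.29 CPM with empty vector (adjusted p = 0.0689 and 0.0769, and 0.0167 and 0.0142 with the reagent term for both effectors). After GC and length adjustment 2 rose and 3 fell. In the Wnt list 3 of 34 rose and 6 fell with the reagent term, beside 9.08% and 13.2% of all genes tested. The secreted antagonist DKK1 had 34.2 CPM with HER2, against 170.4 and 181 CPM with empty vector (log2 fold change -2.36 ± 0.67, adjusted p = 0.134, and 0.00732 with the reagent term). SFRP1, with 3.54 CPM with HER2, against 216 and 223 CPM with empty vector, did not pass despite the gap (log2 fold change -5.95, adjusted p = 0.143, and 0.0833 with the reagent term).

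Cytokine genes moved apart. The chemokine CCL20 had 343 CPM in HER2 cells, against 38.1 and 41.9 CPM in empty-vector cells (log2 fold change 3.10 ± 1.02, adjusted p = 0.168, and 0.00242 with the reagent term). IL6 had 10.5 CPM with HER2, against 0.72 and 0.542 CPM with empty vector (log2 fold change 4.05 ± 1.36, adjusted p = 0.174, and 0.021 with the reagent term). The receptor IL1R1 had 164 CPM with HER2, against 24.7 and 25.3 CPM with empty vector (log2 fold change 2.71 ± 0.40, adjusted p = 0.0521, and 0.0126 with the reagent term), while its ligand IL1A had 63.8 CPM with HER2, against 230.0 and 245 CPM with empty vector (log2 fold change -1.90 ± 0.50, adjusted p = 0.12, and 0.00479 with the reagent term). IL18 had 48.7 CPM with HER2, against 313 and 328 CPM with empty vector (log2 fold change -2.72 ± 0.66, adjusted p = 0.101, and 0.00488 with the reagent term). CXCL8 and LIF were at 19.8 CPM against 95.6 and 92.8 CPM and 5.51 CPM against 51.8 and 50.7 CPM in HER2 and empty-vector cells (adjusted p = 0.0667 and 0.0588, and 0.019 and 0.0144 with the reagent term). Of 28 cytokines and chemokines, 2 rose and 6 fell with the reagent term, beside 9.08% and 13.2% of all genes tested.

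Interferon-stimulated genes showed 6 of 38 higher and 5 lower with the reagent term, beside 9.08% and 13.2% of all genes tested, and 4 and 1 after GC and length adjustment. Only IFI44L passed in the group-means fit, with 33.3 CPM in HER2 cells, against 3.22 and 3.28 CPM in empty-vector cells (log2 fold change 3.35 ± 0.38, adjusted p = 0.0374). On the hydrogel, with 1 library per line, it had 46.5 CPM in HER2 cells against 50.9 CPM in empty-vector cells, not higher in HER2 cells. With YAP/TAZ siRNA 1 and 3 it was higher in HER2 cells, at 158.6 and 176.6 CPM against 32.75 and 17.56 CPM in empty-vector cells. Of 21 antigen presentation genes, 7 fell and 1 rose with the reagent term, and 3 and 0 after adjustment. The member that rose was B2M, the light chain of class I molecules, with 1987 CPM with HER2, against 1368 and 1450.0 CPM with empty vector (adjusted p = 0.211, and 0.0387 with the reagent term). The class I genes HLA-B, HLA-E and HLA-F fell with log2 fold changes of -1.50, -1.52 and -2.21 (adjusted p = 0.104, 0.0695 and 0.0542, and 0.00861, 0.00861 and 0.00941 with the reagent term), and as close paralogs they may share reads. Leukocyte markers summed to 0.70 CPM with HER2, against 4.24 and 4.97 CPM with empty vector, over 5 genes. These sums were all CSF1R with HER2 and mostly CSF1R with empty vector.

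Surface glycans, channels and small-ligand receptors held some of the largest differences. ST6GALNAC3 had 16.4 CPM in HER2 cells, against 0.226 and 0.225 CPM in empty-vector cells (log2 fold change 6.17 ± 0.38, adjusted p = 0.0118), and its relative ST6GALNAC5, a sialyltransferase of the same family, had 0 counts with HER2, against 8.7 and 8.96 CPM with empty vector, and was at least 67.3-fold lower (adjusted p = 0.0386). The potassium channel KCNQ3 had 65.5 CPM with HER2, against 4.09 and 3.65 CPM with empty vector (log2 fold change 4.08 ± 0.54, adjusted p = 0.0451). The receptor for platelet-activating factor, PTAFR, had 3 counts with HER2, a ratio of empty vector over HER2 of 187-fold (interval 63.8 to 905), and the lysophosphatidic acid receptor LPAR2 had 0.525 CPM with HER2, against 7.1 and 7.1 CPM with empty vector (log2 fold change -3.75 ± 0.50, adjusted p = 0.0451).

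Other abundant genes passed in the group-means fit too. Serglycin (SRGN), a proteoglycan of secretory granules, had 177 CPM in HER2 cells, against 13.2 and 12.1 CPM in empty-vector cells (log2 fold change 3.81 ± 0.31, adjusted p = 0.0196). STEAP2, a metalloreductase, had 82.5 CPM with HER2, against 8.29 and 9.48 CPM with empty vector (log2 fold change 3.22 ± 0.40, adjusted p = 0.0408). Both were several-fold above both controls. RPGR, a ciliary protein, RAB8B, a small GTPase of vesicle traffic, NAV1, a microtubule-binding protein, HNRNPH3, an RNA-binding protein, and KIAA1644 rose by log2 fold changes of 2.46, 1.49, 2.73, 2.42 and 5.62. On the side of those that fell, the cell surface proteoglycan syndecan 1 (SDC1) had 19.6 CPM with HER2, against 283 and 243 CPM with empty vector (log2 fold change -3.75 ± 0.42, adjusted p = 0.0374), and annexin A3 (ANXA3) 71.6 CPM with HER2, against 547 and 548 CPM with empty vector (log2 fold change -2.94 ± 0.30, adjusted p = 0.031). The cytokine MIF had 69.9 CPM with HER2, against 293 and 268 CPM with empty vector (log2 fold change -2.01 ± 0.26, adjusted p = 0.0451, 0.00569 with the reagent term and 0.056 with GC content and length adjusted too), and on the hydrogel it was the other way, with 256 CPM in HER2 cells against 189 CPM in empty-vector cells.

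Genes absent from the counts of either group gave bounds. With 0 counts in HER2 cells and at least 1 in each control there were 1224 genes, 405 of them above the floor and 56 at least 10-fold lower by their bound. The 6 most abundant in the controls were ELF3, CLDN4, SERPINB13, ST6GALNAC5, EPHB3 and CST6, an inhibitor of cysteine proteases, at least 65.2-fold lower. The other way, 281 genes had 0 counts in both controls and at least 1 in HER2 cells, 14 of them at least 10-fold higher against a floor of 3 counts over both controls. HP, the haemoglobin-binding protein haptoglobin, had 164 counts with HER2 and was at least 350.0-fold higher (adjusted p = 0.197, and 0.00696 with the reagent term). PRG4, a lubricating glycoprotein, had 49 counts and was at least 105-fold higher, and FAM9B, C7, LAIR1 and GADL1 had 27, 19, 16 and 15 counts.

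Ribosomal protein genes leaned lower. Of 72 tested, 7 rose and 24 fell with the reagent term, beside 9.08% and 13.2% of all genes tested. After GC and length adjustment 6 rose and 11 fell, beside 5.97% and 6.45%. RPL26 had 2692 CPM with HER2, against 1136 and 1222 CPM with empty vector (log2 fold change 1.19 ± 0.23, adjusted p = 0.0724, and 0.00732 with the reagent term). RPL37A had 290.1 CPM with HER2, against 606 and 572 CPM with empty vector (log2 fold change -1.02 ± 0.21, adjusted p = 0.076, and 0.0114 with the reagent term). Processed pseudogenes of these genes can take or lend reads, so their values are uncertain.

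The cell type label held in part in the HER2 library. The 6 markers of basal breast epithelium summed to 659.9 CPM with HER2, against 4808 and 4742 CPM with empty vector, and 4 of them reached 1 CPM with HER2, against all 6 in both controls. The sum with HER2 was mostly KRT5, while TP63 and KRT14 were under 1 CPM. The 6 luminal markers summed to 217.7 CPM with HER2, against 509 and 523.2 CPM with empty vector. Markers of endothelium, melanocytes and neurons summed to 13.1, 3.81 and 50.7 CPM with HER2, against at most 3.62, 13.7 and 191.4 CPM with empty vector. With HER2 the endothelial sum was PECAM1 and KDR, while VWF and CDH5 had 0 counts. The melanocyte sum was MITF, and the neuronal sum was mostly TUBB3. SYP and SNAP25, at 0.438 and 0.175 CPM with HER2, were higher than in the controls. The part of other cell types in the results was not tested.

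On the hydrogel and with YAP/TAZ siRNA, most genes called on plastic differed by 2-fold or more in the same direction. Counts here cover the called genes with a matched GC content, 35 of the 37 that rose and 124 of the 129 that fell. Of the 35 that rose, 28 were at least 2-fold higher in HER2 cells on the hydrogel and 31 with YAP/TAZ siRNA. Of the 124 that fell, 103 and 116 were at least 2-fold lower there. On the hydrogel, with 1 library per line, IFI44L, RAB8B and WDR60 among those that rose had log2 fold changes of -0.13, -0.49 and -0.15. Among those that fell, RNH1, WDR18, C19orf24, MIF and SLC52A2 had 0.39, 0.35, 0.12, 0.44 and 0.20. These are small differences of opposite sign to those on plastic. LAMA3 had 19.2 CPM in HER2 cells against 571 CPM in empty-vector cells on the hydrogel, and ZEB2 119 CPM in HER2 cells against 11.9 CPM in empty-vector cells. The difference between the line effects passed for 0 genes in edgeR's group-means fit, on the hydrogel (1901 at an unadjusted p under 0.05) and with YAP/TAZ siRNA (736), and DESeq2 called 500 and 34.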

How the data were processed

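Total RNA of MCF10A cells was sequenced after ribosomal RNA removal (an Illumina TruSeq total RNA kit with Ribo-Zero Gold), per the labels' protocols. The authors deposited whole-number counts per gene symbol for 9 libraries. STAR 2.5.3a, featureCounts, edgeR and hg19 are named in the submitters' processing notes, while strand, annotation and the handling of multi-mapped reads are not given in the sources used here. Totals ran from 24425556 to 78945981 counts. The 1 row without a symbol held 0 counts.

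Counts were fitted with edgeR 4.0.16 (R 4.3.3, limma 3.58.1) after TMM scaling, with filterByExpr at a minimum count of 10, and tested on simulated data. The group-means fit has 6 groups. The reagent-term fit takes the siRNA number as a replicate block, with numbers 1 and 3 as the same reagent in both lines, a judgement from the labels. Deviations of the same number correlated across lines at r = 0.415 over 16117 genes. Its p is given beside a result whose call it changes. GC content and length offsets were added after the data were seen. Alternatives were RLE factors, no filter, DESeq2 1.42.0, thinning, the 3 libraries alone and each replicate left out.

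Named genes were, in each direction, the 15 of highest CPM past the threshold of the group-means fit, leaving out uncharacterised loci and small RNAs. A few genes the rule names are not reported here. From each list came up to 8 members of highest CPM and any past the threshold of either fit, with ERBB2's neighbours and the 6 genes of highest CPM at 0 counts in the other group. Members and lists were chosen with earlier results of these data known. Ratios of genes with 1 to 3 counts carry exact 95% intervals.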

Additional observations from a re-analysis of the deposited data

How the results depend on the processing

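For HER2 versus empty vector on plastic, the group-means fit called 166 genes (3353 at an unadjusted p under 0.05). No filter on low counts gave 400, DESeq2 2322, the replicate block 3597, and the 3 libraries on plastic alone 9666, with 1 residual degree of freedom. RLE factors (139) and thinning (174) stayed within 1.5 times. GC content and length adjustment, added after seeing the data, gave 52 without the replicate block and 2001 with it. Leaving out 1 replicate gave from 0 genes (without control A or B, lone libraries being assumed to vary like the other groups) to 1011. The replicate block without control A or B gave 502 or 617. The causes were not tested. Between the line effects on plastic and the hydrogel, and with and without YAP/TAZ siRNA, 0 genes passed in every edgeR setting run, against 500 and 34 in DESeq2. Of the named genes, 3 changed sign. CCND1 had a log2 fold change of -0.07 in the group-means fit, from -0.0914 to 0.0129 with 1 replicate left out, 0.0129 with the replicate block and without control A, and 0.0188 with GC content and length adjusted, with or without the block. MDM2 had 0.03 in the group-means fit, -0.0056 with no filter and -0.2865 with GC content and length adjusted. FASN had -0.91 in the group-means fit and 0.2449 after that adjustment. At the depth of the HER2 library, levels under 0.131 CPM cannot be told from 0.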
